A study of Homo sapiens with 27 samples.

Results

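The 10 genes described here were HAS2, which makes hyaluronan, and the matrix, receptor and signalling genes THBS1, TNC, CCN1, CCN2, ANKRD1, AXL, FN1, SPARC and CD44. They were followed through every probe set whose platform annotation names only 1 of them, with CCN1 and CCN2 also accepted under their older symbols. This gave 30 of 22215 non-control probe sets and 10 of 11963 genes. CD44 had 8 probe sets, FN1 6, THBS1 5, and TNC, CCN1, AXL and SPARC 2 each, while HAS2, CCN2 and ANKRD1 had 1 each. Probe sets of 1 gene read the same transcripts and are not separate evidence.

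MDA-MB-231 cells, an established mesenchymal-like human breast cancer line, had been grown in DMEM with serum and given DMSO as vehicle, 5SGlcNAc at 50 µM or Thiamet-G at 25 µM. 5SGlcNAc inhibits OGT, the enzyme that adds the sugar O-GlcNAc to intracellular proteins, while Thiamet-G blocks the removing enzyme, OGA. The title of the study concerns NRF2 signalling and O-GlcNAc on KEAP1. Total RNA was read on 27 Affymetrix arrays: 1 array per treatment at 0, 2, 4, 6, 8 and 24 h (18 arrays), and 3 arrays per treatment at 48 h (9 arrays). The 0 h arrays also carry a treatment name. All groups are of 1 cell line, and the labels do not tell whether the 48 h arrays came from separate cultures, so their p-values reflect a spread between arrays that may be technical only.

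Hyaluronan is a large sugar polymer that HAS enzymes extrude through the plasma membrane into the pericellular matrix, where CD44 is its main cell surface receptor. Matricellular proteins such as thrombospondin-1 (THBS1), tenascin-C (TNC), the CCN proteins and SPARC are secreted into the matrix and modulate adhesion and growth factor access more than they bear load, whereas fibronectin (FN1) forms fibrils that integrins hold. CCN1, CCN2, ANKRD1 and AXL are widely used as readouts of the transcriptional coactivators YAP and TAZ, which bind DNA through TEAD factors, and several of the 10 genes also respond to TGF-beta and serum in many cell types.

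The deposited values are log2 levels, and every difference below is a difference of log2 levels. Array medians were 7.68 to 7.75 at 48 h and 7.42 to 7.52 at 0 to 24 h. Values of 48 h carry fewer decimals than the others, and their levels were not set against levels at other times. The least alike pair of arrays correlated at 0.997 at 48 h and at 0.994 at 0 to 24 h. The 3′ probe set of ACTB exceeded its 5′ probe set by 0.15 to 0.39 at 48 h, by 1.64 on the DMSO array of 4 h, by 1.24 on the Thiamet-G array of 4 h, and by 0.42 to 0.95 on the other arrays of 0 to 24 h. Of 9 markers listed for the line, VIM averaged 14.97 at 48 h and CAV1 13.47, whereas SPARC averaged 5.12, under the lower quartile of the arrays. Markers of other cell types were mixed. Of 11 luminal epithelial markers, KRT18 (13.64), KRT8 (12.49), KRT19 (11.64), GATA3 (9.65) and EPCAM (9.54) averaged above the array median of 7.71 at 48 h, while PGR averaged 3.98 and FOXA1 5.44. Of 9 fibroblast markers COL1A1 (9.33) lay above that median, while FAP averaged 4.17 and POSTN 3.92. Of 7 haematopoietic markers HBB (7.82) lay just above it and PTPRC averaged 4.14, and none of 5 endothelial markers did, with CDH5 at 4.94 and KDR, the brightest, at 6.95.

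The promoters of the genes used as YAP and TAZ readouts show how the motif bound by TEAD factors is placed before each start. RefSeq's table, on build GRCh38.p14, held the promoters of 8 of the 10 genes (CCN1 and HAS2 are not in it). In the 250 bases before the start, the letters CATTCC or GGAATG (TEAD motif, both strands), TGANTCA (AP-1) and the CArG box of SRF were searched. CCN2 held 3 TEAD motifs, at 169, 104 and 95 bases before its start. ANKRD1 held 2, at 220 and 128 bases, with 1 AP-1 motif at 195 bases between them. THBS1 held 1 TEAD motif at 46 bases, SPARC 1 at 17 bases, and the second of the starts of AXL 1 at 212 bases. FN1, TNC, CD44 and the first start of AXL had none of these letters in the window. Of 35116 promoter windows of this length, 11.9% held at least 1 TEAD motif, 0.94% at least 2 and 0.0826% at least 3, and 6.57% held an AP-1 motif. The CCN2 window (chr6:131951373-131951622, minus strand), the ANKRD1 window (chr10:90921088-90921337, minus strand) and the THBS1 window (chr15:39580829-39581078, plus strand) are printed 5′ to 3′ because these genes moved with time or treatment or share the motif. Capitals mark TEAD and AP-1 motifs, none of which overlap.
CCN2: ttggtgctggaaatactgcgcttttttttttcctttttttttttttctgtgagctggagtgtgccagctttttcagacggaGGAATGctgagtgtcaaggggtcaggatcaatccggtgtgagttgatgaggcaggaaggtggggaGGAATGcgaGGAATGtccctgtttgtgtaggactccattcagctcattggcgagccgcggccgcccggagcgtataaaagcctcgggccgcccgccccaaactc
ANKRD1: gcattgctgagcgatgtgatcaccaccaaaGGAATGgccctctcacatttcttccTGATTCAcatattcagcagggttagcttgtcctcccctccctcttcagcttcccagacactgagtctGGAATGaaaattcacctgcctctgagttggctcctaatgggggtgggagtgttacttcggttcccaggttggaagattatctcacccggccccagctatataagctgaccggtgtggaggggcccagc
THBS1: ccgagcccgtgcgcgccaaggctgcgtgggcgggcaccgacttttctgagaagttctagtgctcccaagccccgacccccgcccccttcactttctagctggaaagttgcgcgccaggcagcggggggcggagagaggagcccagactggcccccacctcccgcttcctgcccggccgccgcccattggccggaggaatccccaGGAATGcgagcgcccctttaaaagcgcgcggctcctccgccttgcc
A match is only a description of these letters and not evidence of binding.

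At 48 h, 5SGlcNAc against DMSO changed 2 of the 30 probe sets (limma, Benjamini-Hochberg adjusted p under 0.05 over all probe sets), where 6.70% of all probe sets were called: TNC was lower and CCN2 was higher. Thiamet-G against DMSO changed 1, THBS1 201110_s_at, against 1.67% of all. Both shares are near the background, so the counts say nothing particular about these genes. By the brightest probe set, 2 of 10 genes were called in the first comparison (8.28% of all genes) and 0 in the second (2.23% of all genes). Between the inhibitors, 8 of 30 differed against 8.95% of all, and 7 of them were lower with 5SGlcNAc (4.70% of all): 4 probe sets of FN1, 2 of THBS1 and TNC 201645_at were lower with 5SGlcNAc than with Thiamet-G, and CCN2 was higher. That made 3 of 10 genes by their brightest probe sets, against 11.0% of all genes. In such bulk RNA, a change in the share of some cells and a change of RNA per cell cannot be told apart. These 3 comparisons share arrays, so their values are given side by side and not counted as repeats.

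Without a test, the groups of 3 arrays did not overlap for 10 of the 30 probe sets between 5SGlcNAc and DMSO (27.5% of all probe sets), for 14 between Thiamet-G and DMSO (18.9% of all) and for 13 between the inhibitors (25.6% of all). Of the 14, 11 were higher with Thiamet-G (5.96% of all), from THBS1, FN1, CD44 and CCN1. Of the 13, 11 were lower with 5SGlcNAc (11.5% of all).

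Within 0 to 24 h, member probe sets were called only in the comparisons with 0 h, not in those between treatments. Relative to 0 h, in the fit that blocks on the 3 series, 0 of 30 probe sets were called at 2 h (0.405% of all; 8 of 30 had an unadjusted p under 0.05), 3 at 4 h (2.29% of all), 2 at 6 h (2.85% of all), 2 at 8 h (4.22% of all) and 13 at 24 h (7.33% of all). At 24 h 12 of the 13 were lower (3.77% of all): 4 probe sets of THBS1, 4 of FN1, 2 of CD44, TNC and HAS2. CCN2 alone was higher. Counted by the brightest probe set of each gene, 4 of 10 genes were called at 24 h against 8.46% of all genes: FN1, TNC and HAS2 fell and CCN2 rose. THBS1 was missed by that count because its brightest probe set there, 201110_s_at, did not pass. The comparisons over time share the 3 arrays of 0 h.

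**Figure D1:**
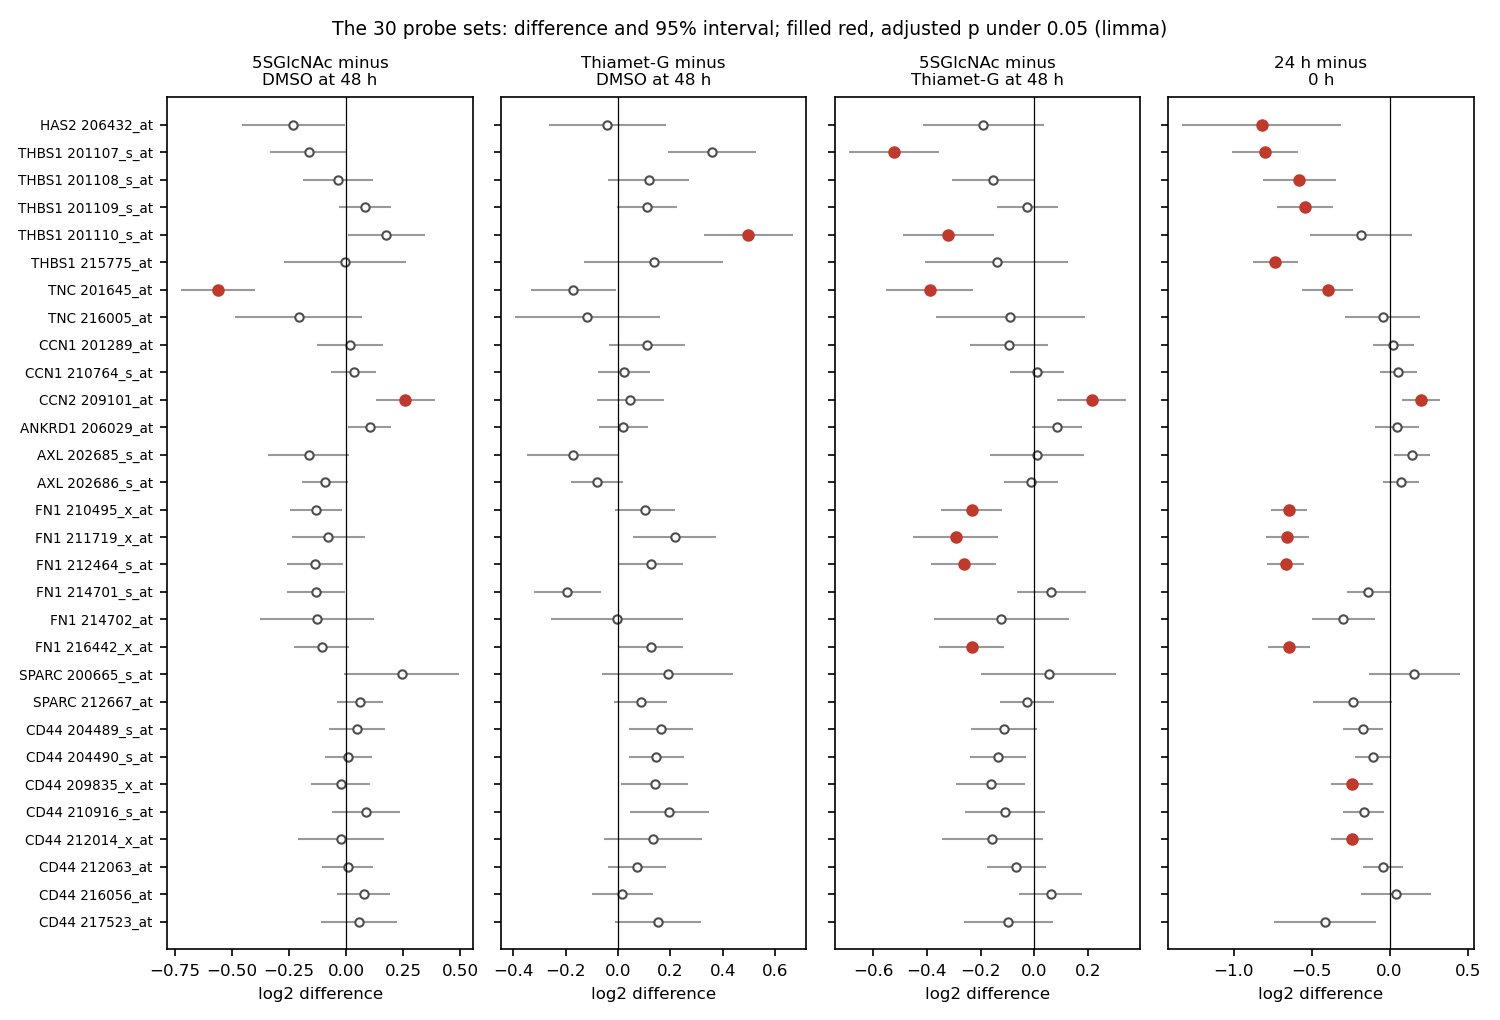
Log2 difference (x axis) of each of the 30 probe sets (y axis), with the 95% interval of the limma fit, for the 3 comparisons at 48 h and for 24 h against 0 h. Filled red points have an adjusted p under 0.05: 2, 1 and 8 probe sets at 48 h, and 13 at 24 h, of which 12 lie to the left of 0.

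HAS2, the main hyaluronan synthase of mesenchymal cells, had the widest range of the 30 probe sets over 0 to 24 h, from 6.44 to 8.63. The DMSO series read 8.63 at 0 h and then 7.51, 6.44, 7.67, 7.20 and 7.56 at 2, 4, 6, 8 and 24 h. The 5SGlcNAc series read 8.50, then 7.14, 6.82, 7.11, 7.78 and 7.92. The Thiamet-G series read 8.48, then 7.94, 7.76, 7.92, 7.99 and 7.68. Every later array lay below all 3 arrays of 0 h, and the deepest values were the 4 h arrays of DMSO and 5SGlcNAc. Relative to 0 h, HAS2 was 2.89-fold lower at 4 h (log2 difference -1.53 ± 0.238 SE, 3 series, limma adjusted p 0.00392). It was also lower at 6 h (-0.97, adjusted p 0.0423) and at 24 h (-0.82, adjusted p 0.0499), and it did not pass at 2 h (-1.01, adjusted p 0.105) or 8 h (-0.88, adjusted p 0.0506).

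The DMSO array of 4 h, the lowest for HAS2, is also the array with the largest ACTB 3′ to 5′ gap. Without it the 4 h difference was -1.30 (adjusted p 0.0352), and without both 4 h arrays of large gap, leaving 5SGlcNAc alone at that time, it was -1.61 (adjusted p 0.0932). The 4 h call was also lost without the DMSO series (-1.21, adjusted p 0.198) or the 5SGlcNAc series (-1.46, adjusted p 0.0828). At 6 h it was lost without any 1 series (-1.18 to -0.76, adjusted p 0.0861 to 0.265), and at 24 h likewise (-0.94 to -0.69, adjusted p 0.117 to 0.224). With trend and robust variance the adjusted p was 0.0678 at 6 h and 0.0892 at 24 h, and without the series block it was 0.0842 and 0.0987. At 24 h it was 0.0691 after quantile normalization and 0.0635 with median centring. Calls over all probe sets were lost in these runs too. Without the DMSO series the 509, 633 and 938 calls at 4, 6 and 8 h became 0, 5 and 0. Without the 5SGlcNAc series the 1629 calls at 24 h became 254.

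Between treatments, HAS2 read higher with Thiamet-G than with DMSO at each of the 5 times from 2 to 24 h, by 0.43, 1.31, 0.25, 0.79 and 0.12. Of all probe sets, 4.47% were higher at all 5 times. At 0 h it read 0.15 lower (-0.15). The mean over the 5 times was 0.58 ± 0.179 SE, with a 95% interval of 0.19 to 0.97, and did not pass over all probe sets (limma adjusted p 0.459). In this fit the times stand in for replicates. The largest of the 5 gaps falls on the DMSO array of 4 h. For 5SGlcNAc against DMSO the mean difference was 0.08 (adjusted p 0.999), with both signs among the times. In these fits over 2 to 24 h, 0 of the 30 probe sets were called for 5SGlcNAc against DMSO (0% of all; 1 at an unadjusted p under 0.05). The same held for Thiamet-G against DMSO (0% of all; 6 at an unadjusted p under 0.05) and for 5SGlcNAc against Thiamet-G (0.0675% of all; 5 at an unadjusted p under 0.05).

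At 48 h, HAS2 read 7.92, 8.25 and 7.92 with DMSO, 7.92, 7.70 and 7.78 with 5SGlcNAc, and 8.08, 7.87 and 8.02 with Thiamet-G. The groups overlapped or touched in each comparison. 5SGlcNAc minus DMSO was -0.23 (95% interval -0.45 to -0.01, limma adjusted p 0.217), and Thiamet-G minus DMSO was -0.04 (adjusted p 0.877).

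**Figure D2:**
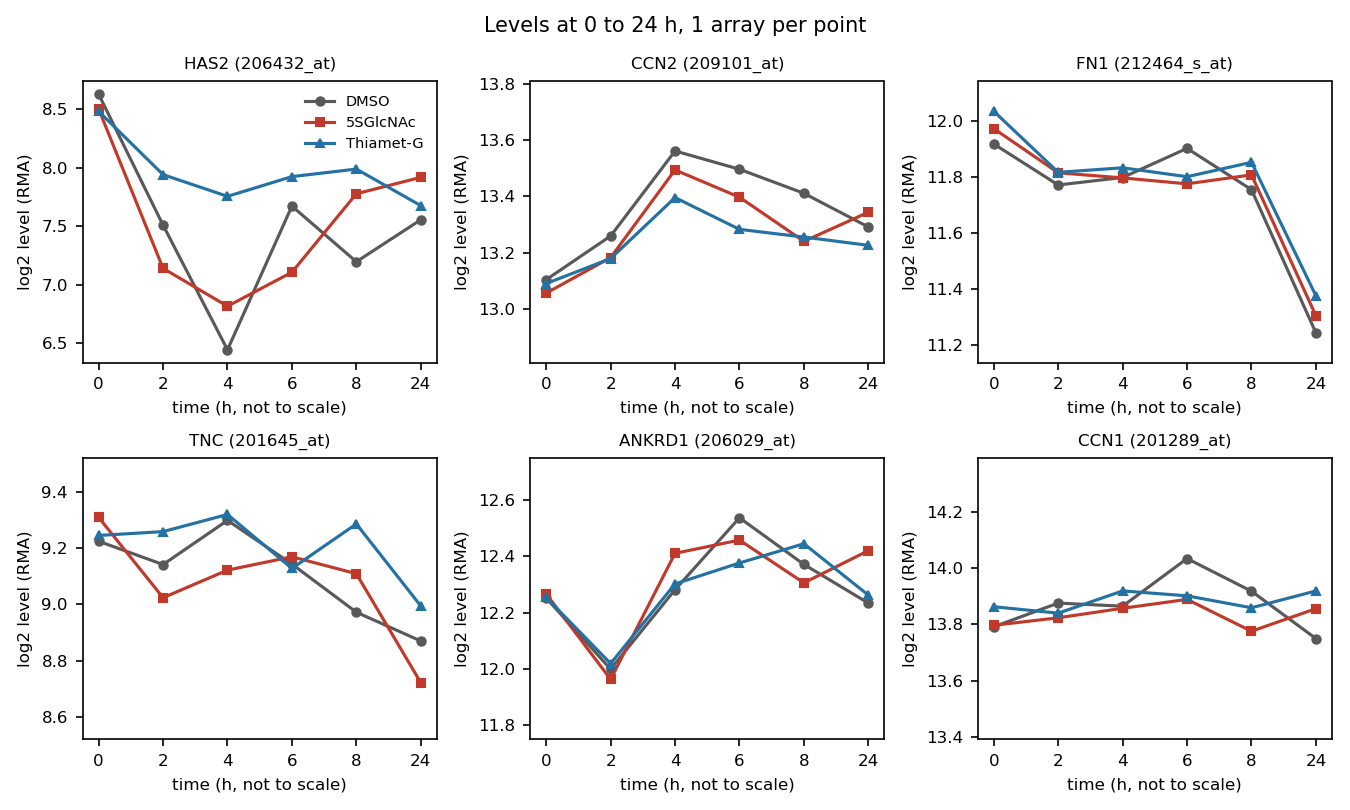
Log2 level (y axis) at 0, 2, 4, 6, 8 and 24 h (x axis, not to scale) of HAS2, CCN2, FN1, TNC, ANKRD1 and CCN1, with 1 array per point and 1 line per treatment series. HAS2 drops from 8.48 to 8.63 at 0 h to below 8 on every later array, CCN2 peaks at 4 h in all 3 series, and FN1 is lowest at 24 h in all 3.

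CD44, the cell surface receptor for hyaluronan, was flat by its brightest probe set and lower at 24 h by others. The brightest probe set, 212063_at, read from 13.03 to 13.25 with a median of 13.14 over the 18 arrays of 0 to 24 h, and from 12.93 to 13.14 at 48 h. At 24 h it differed from 0 h by -0.04 (adjusted p 0.76). The probe sets 209835_x_at and 212014_x_at, whose suffix marks probes that can also match other transcripts, fell there by 0.24 each (adjusted p 0.0299 for both). These calls were lost without any 1 series, with differences of -0.30 to -0.16 and adjusted p up to 0.383. Without a test, 7 of the 8 probe sets read lower at 24 h than at 0 h in all 3 series (18.8% of all probe sets did so), and differences over the 8 ran from -0.41 to 0.04. The lowest was 217523_at, which read 6.69 to 7.61 over the 18 arrays and did not pass at 24 h (-0.41, adjusted p 0.125) or at 4 h (-0.37, adjusted p 0.243). The other probe sets of CD44 had medians from 5.84 to 12.39 over 0 to 24 h and passed no test in the main fits. With trend and robust variance 204489_s_at passed at 24 h (-0.17, limma adjusted p 0.0216), as it did after quantile normalization (-0.18, adjusted p 0.0418). At 48 h no CD44 probe set was called in the main fits. Without overlap, Thiamet-G lay above DMSO on 204489_s_at, 204490_s_at, 209835_x_at and 210916_s_at (5.96% of all probe sets). Likewise 5SGlcNAc lay below Thiamet-G on 204489_s_at, 204490_s_at, 209835_x_at and 212063_at (11.5% of all). By 204490_s_at the arrays read 11.14, 11.12 and 11.24 with Thiamet-G against 11.02, 11.05 and 10.99 with DMSO. With trend and robust variance this difference passed (0.15, limma adjusted p 0.0476).

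CCN2, a secreted matricellular protein also called connective tissue growth factor, rose within hours in all 3 series. The DMSO series read 13.10 at 0 h and 13.26, 13.56, 13.50, 13.41 and 13.29 at 2, 4, 6, 8 and 24 h. With 5SGlcNAc it read 13.06, 13.18, 13.49, 13.40, 13.24 and 13.34, and with Thiamet-G 13.09, 13.18, 13.40, 13.28, 13.26 and 13.23. Each later array lay above all 3 arrays of 0 h, and each series was highest at 4 h. The difference from 0 h was 0.40 ± 0.0571 SE at 4 h (1.32-fold, limma adjusted p 0.00251), 0.31 at 6 h (adjusted p 0.012), 0.22 at 8 h (adjusted p 0.0444) and 0.20 at 24 h (adjusted p 0.0433). At 2 h it was 0.12 (adjusted p 0.67).

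The sizes kept their sign in every alternative run, but most of the calls were lost with 1 series left out. Without the DMSO series, nearly all calls of the whole array at 4, 6 and 8 h were lost as well. The 4 h call of CCN2 was lost without the DMSO series (0.37, adjusted p 0.172) or the 5SGlcNAc series (0.38, adjusted p 0.107), kept without the Thiamet-G series, and lost without both 4 h arrays of large ACTB gap (0.42, adjusted p 0.128). At 6 h the value without 1 series was 0.27 to 0.37 (adjusted p 0.0918 to 0.29), at 8 h 0.17 to 0.25 (0.186 to 0.26) and at 24 h 0.16 to 0.24 (0.154 to 0.375). Without the DMSO array of 4 h, the adjusted p was 0.0213 at 4 h, 0.0536 at 8 h and 0.0511 at 24 h.

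At 48 h, CCN2 read 13.24, 13.19 and 13.26 with DMSO, 13.51, 13.49 and 13.47 with 5SGlcNAc, and 13.22, 13.21 and 13.40 with Thiamet-G. All 3 arrays of 5SGlcNAc lay above the other 6. The gene was 1.20-fold higher with 5SGlcNAc than with DMSO (0.26 ± 0.0569 SE, n = 3 against 3, limma adjusted p 0.0262) and 1.16-fold higher than with Thiamet-G (0.21, adjusted p 0.048). Thiamet-G minus DMSO was 0.05 (95% interval -0.08 to 0.17, adjusted p 0.724). Leaving out any 1 array of the groups left the first difference at 0.24 to 0.28 with adjusted p of 0.0603 to 0.0962. The second was lost without any 5SGlcNAc array and without Thiamet-G replicate 1 or 2 (0.18 to 0.22, adjusted p 0.0954 to 0.147), with each array centred on its median (0.20, adjusted p 0.0583) and with only the arrays of these 2 groups (adjusted p 0.107).

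Over 2 to 24 h, 5SGlcNAc minus DMSO for CCN2 was -0.07 (95% interval -0.17 to 0.03), lower at 4 of the 5 times and higher at 24 h, and the difference between the effects at 48 h and at 2 to 24 h was 0.33 ± 0.0693 SE (limma adjusted p 0.0246). In this comparison 2 of the 30 probe sets were called, against 0.851% of all, CCN2 and TNC. For Thiamet-G it was 0 of 30 (0.00450% of all; 6 at an unadjusted p under 0.05). The CCN2 difference was lost without DMSO replicate 1 or 2 or 5SGlcNAc replicate 1 or 2 of 48 h (0.31 to 0.34, adjusted p 0.0659 to 0.0946). CCN2 also read lower with Thiamet-G than with DMSO at 5 of 5 times from 2 to 24 h (mean -0.14, 95% interval -0.24 to -0.04, limma adjusted p 0.498). Of all probe sets, 3.93% were lower at all 5 times.

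CCN1, the closest relative of CCN2 among the 10 genes and also known as CYR61, stayed between 13.75 and 14.03 over the 18 arrays of 0 to 24 h by probe set 201289_at, with a median of 13.86. At 48 h it read 13.79 to 14.05. The probe set 210764_s_at read 13.53 to 13.81 and 13.62 to 13.71. None of the 26 tests of CCN1 passed, and the lowest adjusted p was 0.178. With trend and robust variance, 210764_s_at was higher than at 0 h by 0.13 at 4 h (adjusted p 0.0488) and by 0.15 at 6 h (adjusted p 0.0219). 5SGlcNAc minus DMSO at 48 h was 0.02 (95% interval -0.13 to 0.16).

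ANKRD1, a nuclear and sarcomeric ankyrin repeat protein, had a dip and a rise that every series shared. It read 12.25, 12.27 and 12.25 at 0 h in the DMSO, 5SGlcNAc and Thiamet-G series, 12.00, 11.96 and 12.02 at 2 h, and 12.54, 12.46 and 12.38 at 6 h. All 2 h arrays lay below and all 6 h arrays above those of 0 h. By series, 14.9% of all probe sets were lower in all 3 at 2 h, and 20.5% were higher in all 3 at 6 h. The differences of ANKRD1 from 0 h were -0.26 ± 0.0662 SE at 2 h (limma adjusted p 0.135) and 0.20 at 6 h (adjusted p 0.125), so neither passed over all probe sets. With limma's trend and robust variance both did (adjusted p 0.0108 and 0.0263). At 48 h it read 12.61, 12.63 and 12.61 with DMSO against 12.73, 12.69 and 12.74 with 5SGlcNAc. These groups did not overlap, at a difference of 0.10 (95% interval 0.01 to 0.20, adjusted p 0.185, or 0.037 with trend and robust variance).

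AXL, a receptor tyrosine kinase bound by GAS6 and abundant in this line, read 13.38 to 13.63 with a median of 13.52 over 0 to 24 h by its brighter probe set, 202686_s_at. At 48 h it read 13.79, 13.77 and 13.76 with DMSO, 13.73, 13.62 and 13.69 with 5SGlcNAc, and 13.70, 13.72 and 13.66 with Thiamet-G. Both inhibitor groups lay below the DMSO group without overlap, by -0.09 (limma adjusted p 0.258) and -0.08 (adjusted p 0.405). The dimmer probe set, 202685_s_at, read 9.37 to 9.75 over 0 to 24 h and 9.30 to 9.76 at 48 h. None of the 26 tests of AXL passed, and with trend and robust variance 5SGlcNAc against DMSO did so narrowly (adjusted p 0.0495).

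THBS1, a trimeric glycoprotein that binds CD47, CD36 and integrins and can activate latent TGF-beta, fell by 24 h on 4 of its 5 probe sets, but not on the brightest, 201110_s_at. By 215775_at, the dimmest, it read 7.51 at 0 h and 6.70 at 24 h with DMSO, 7.60 and 6.76 with 5SGlcNAc, and 7.62 and 7.08 with Thiamet-G. By 201107_s_at it read 8.86 and 7.92, 8.75 and 7.83, and 8.91 and 8.39. In all 3 series the 24 h array lay below every earlier array of both probe sets, and the Thiamet-G array was the highest of the 24 h arrays. The differences from 0 h were -0.73 ± 0.0668 SE for 215775_at (1.66-fold lower, limma adjusted p 1.72e-05) and -0.80 ± 0.0989 SE for 201107_s_at (1.74-fold lower, adjusted p 0.00025), and both passed in all 11 alternatives. For 201108_s_at (-0.58, adjusted p 0.00492) and 201109_s_at (-0.54, adjusted p 0.00127) the call was lost without the 5SGlcNAc series (-0.54, adjusted p 0.108, and -0.51, adjusted p 0.0752).

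The fifth probe set, 201110_s_at, differed from these. Its 24 h arrays read 12.38 with DMSO, 13.14 with 5SGlcNAc and 12.91 with Thiamet-G, against 12.87, 13.12 and 12.99 at 0 h. The DMSO series was lower at 24 h, the others lay close to their 0 h arrays, and the mean difference was -0.18 ± 0.154 SE (limma adjusted p 0.565). Over the 18 arrays its correlation with the other probe sets of THBS1 was 0.37 to 0.60, while the other 4 correlated at 0.65 to 0.93 among themselves. These points share their times, series and processing.

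Earlier dips of THBS1 were smaller. At 4 h 201108_s_at read 10.66 with DMSO, 11.05 with 5SGlcNAc and 11.11 with Thiamet-G, against 11.34, 11.34 and 11.48 at 0 h. All 3 were lower than at 0 h, and the DMSO array was the lowest (-0.44, limma adjusted p 0.0457). The call was lost without any 1 series (-0.52 to -0.33, adjusted p 0.132 to 0.322) and without the DMSO array of 4 h, which has the large ACTB gap (-0.30, adjusted p 0.215). At 8 h 201109_s_at was lower by 0.35 on average (-0.35, adjusted p 0.0294), again lost without any 1 series (adjusted p 0.102 to 0.213).

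**Figure D3:**
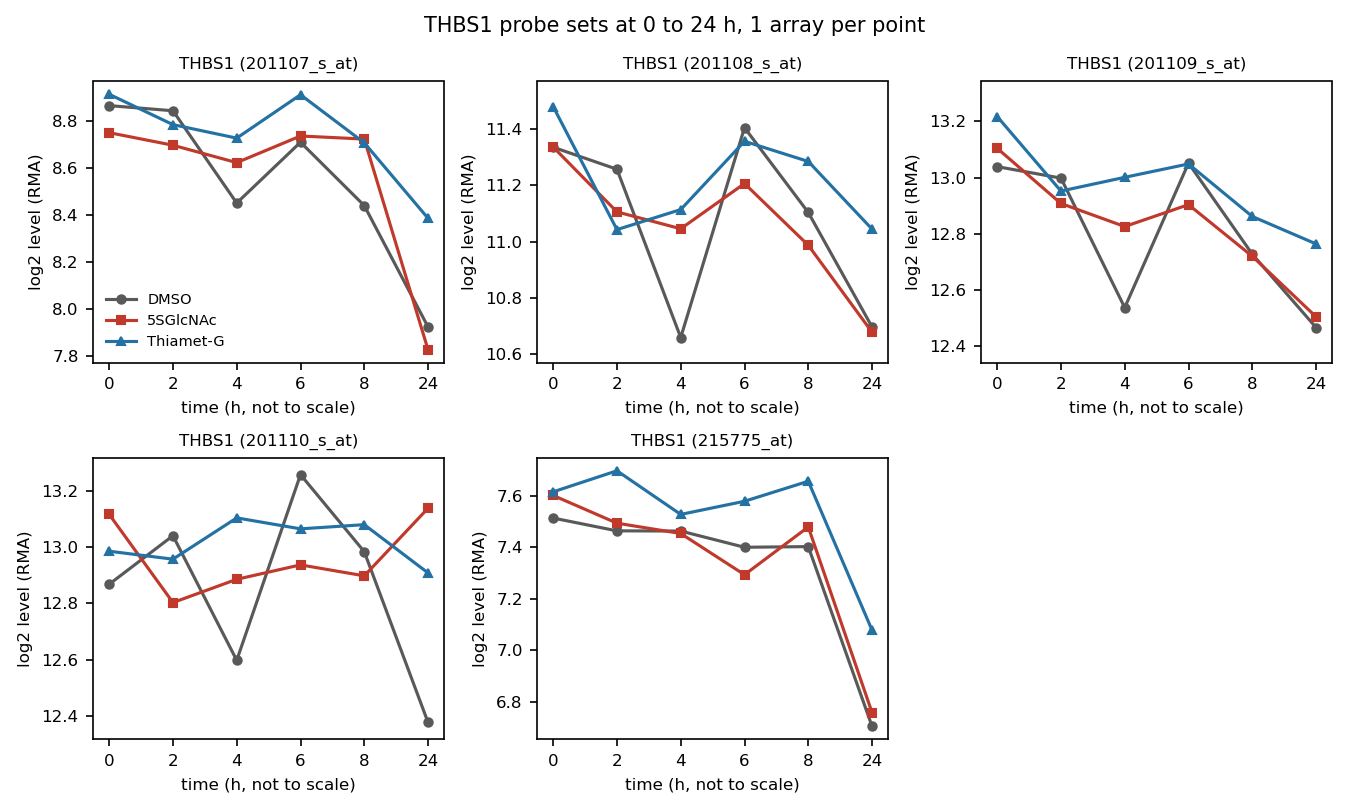
Log2 level (y axis) of the 5 probe sets of THBS1 at 0 to 24 h (x axis, not to scale), with 1 array per point and 1 line per treatment series. At 24 h, 4 of the 5 panels are at or near their lowest point in all 3 series, while 201110_s_at spreads from 12.38 with DMSO to 13.14 with 5SGlcNAc.

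At 48 h, THBS1 averaged highest with Thiamet-G. By 201110_s_at it read 12.28, 12.22 and 12.16 with DMSO, 12.43, 12.43 and 12.33 with 5SGlcNAc, and 12.82, 12.54 and 12.79 with Thiamet-G. By 201107_s_at it read 7.93, 8.08 and 7.93, then 7.70, 7.97 and 7.78, then 8.40, 8.29 and 8.33. The Thiamet-G arrays lay above all others on both probe sets. Thiamet-G against DMSO was 1.41-fold higher by 201110_s_at (0.50 ± 0.0755 SE, n = 3 against 3, limma adjusted p 0.0208). By 201107_s_at it was 0.36, which just missed the threshold (adjusted p 0.0503) and passed with dim probe sets left out (adjusted p 0.0157). By the brightest probe set, 201109_s_at, it was 0.11 (± 0.0509 SE, adjusted p 0.315). For 201108_s_at and 215775_at the Thiamet-G arrays overlapped or touched those of both other groups. Over the 5 probe sets Thiamet-G minus DMSO ran from 0.11 to 0.50 (limma adjusted p 0.0208 to 0.601). For 5SGlcNAc minus Thiamet-G the range was -0.52 to -0.03 (limma adjusted p 0.00299 to 0.802).

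Between the inhibitors, 5SGlcNAc was below Thiamet-G by 201107_s_at (-0.52 ± 0.0748 SE, 1.44-fold, limma adjusted p 0.00299), a call kept in the 13 alternatives run on that probe set, and by 201110_s_at (-0.32, adjusted p 0.0297). The call of 201110_s_at against DMSO was lost without any 1 DMSO array or without Thiamet-G replicate 1 or 3 (0.45 to 0.53, adjusted p 0.0651 to 0.0869) and with only the arrays of these 2 groups (adjusted p 0.0741), and that against 5SGlcNAc was lost without any 5SGlcNAc array or Thiamet-G replicate 1 or 3 (-0.34 to -0.27, adjusted p 0.0666 to 0.104). 5SGlcNAc minus DMSO was 0.18 by 201110_s_at and -0.16 by 201107_s_at (adjusted p 0.211 and 0.241), so the probe sets did not share a direction there.

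TNC, a hexameric glycoprotein of remodelling and tumour matrix, gave the largest difference of the 30 probe sets between 5SGlcNAc and DMSO at 48 h. By 201645_at it read 9.98, 10.02 and 9.87 with DMSO, 9.33, 9.56 and 9.30 with 5SGlcNAc, and 9.80, 9.78 and 9.78 with Thiamet-G. The 3 groups did not overlap, with 5SGlcNAc lowest and DMSO highest. TNC was 1.47-fold lower with 5SGlcNAc than with DMSO (-0.56 ± 0.0715 SE, 95% interval -0.72 to -0.40, n = 3 against 3, limma adjusted p 0.0024) and 1.31-fold lower than with Thiamet-G (-0.39, adjusted p 0.01). Both calls were kept in the 14 alternatives run on this probe set. Averaged with the dim second probe set, the differences were -0.38 (adjusted p 0.0149) and -0.24 (adjusted p 0.0771), so the second call was lost. Thiamet-G minus DMSO was -0.17 (95% interval -0.33 to -0.01, adjusted p 0.272).

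The earlier arrays of TNC did not show this gap. Over 2 to 24 h, 5SGlcNAc minus DMSO was -0.06 (95% interval -0.18 to 0.07), and the difference between the effects at 48 h and at 2 to 24 h was -0.50 ± 0.0949 SE (limma adjusted p 0.0132). It missed the threshold without DMSO replicate 2 (-0.47, adjusted p 0.053) or 5SGlcNAc replicate 1 (-0.47, adjusted p 0.0598) of 48 h. With time, TNC read 9.22 at 0 h and 8.87 at 24 h with DMSO, 9.31 and 8.72 with 5SGlcNAc, and 9.25 and 8.99 with Thiamet-G, so each series was lower at 24 h. The difference was -0.40 ± 0.0777 SE (1.32-fold, adjusted p 0.0064), and the call was lost without the DMSO series (-0.42, adjusted p 0.0721) or the 5SGlcNAc series (-0.30, adjusted p 0.151). With the probe sets averaged, neither the difference between the effects (-0.33, adjusted p 0.0964) nor the 24 h difference (-0.22, adjusted p 0.0909) passed. The other TNC probe set, 216005_at, was dim, at 4.20 to 4.71 over 0 to 24 h and 4.75 to 5.30 at 48 h, and none of its tests passed.

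FN1 encodes fibronectin, the fibril-forming glycoprotein on which many other matrix proteins assemble. Its 4 bright probe sets ran together. By 212464_s_at the level went from 11.92 at 0 h to 11.24 at 24 h with DMSO, from 11.97 to 11.31 with 5SGlcNAc, and from 12.03 to 11.38 with Thiamet-G. From 2 to 8 h the same probe set stayed between 11.75 and 11.90. The 24 h arrays lay below every other array of the set, and the 3 series differed from their own 0 h arrays by nearly the same amount (-0.67, -0.67 and -0.66). By the 4 probe sets, FN1 was 1.56 to 1.59-fold lower at 24 h (log2 differences -0.66 to -0.65, SE 0.0536 to 0.0643, limma adjusted p 8.75e-06 to 3.55e-05), and each call was kept in every alternative. They correlated at 0.97 to 0.98 with each other over 18 arrays, and 3 of the 4 carry the suffix for shared probes.

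At 48 h FN1 separated the inhibitors more than either from DMSO. By 212464_s_at it read 11.72, 11.74 and 11.73 with DMSO, 11.60, 11.59 and 11.59 with 5SGlcNAc, and 11.94, 11.74 and 11.89 with Thiamet-G. The 5SGlcNAc arrays were the lowest, and 1 Thiamet-G array lay at the DMSO level. 5SGlcNAc was below Thiamet-G by 0.23 to 0.29 on the 4 probe sets (-0.29 to -0.23, limma adjusted p 0.0162 to 0.0322). Each of these calls was lost without 5SGlcNAc replicate 1 or 2 or Thiamet-G replicate 1, and 3 of the 4 without 5SGlcNAc replicate 3 or Thiamet-G replicate 3, with differences of -0.31 to -0.19 and adjusted p of 0.0516 to 0.114. All 4 were also lost when only the arrays of these 2 groups were fitted, and the mean of the 6 FN1 probe sets did not pass (-0.18, adjusted p 0.0567). Against DMSO the brightest probe set, 210495_x_at, differed by -0.13 with 5SGlcNAc (adjusted p 0.168) and by 0.10 with Thiamet-G (adjusted p 0.34). The dim probe sets 214701_s_at and 214702_at, at 4.44 to 6.51 over all arrays, passed no test in the main fits. After quantile normalization, 214701_s_at was lower than at 0 h at 6 h (-0.25, limma adjusted p 0.041) and 214702_at at 24 h (-0.31, adjusted p 0.0358).

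**Figure D4:**
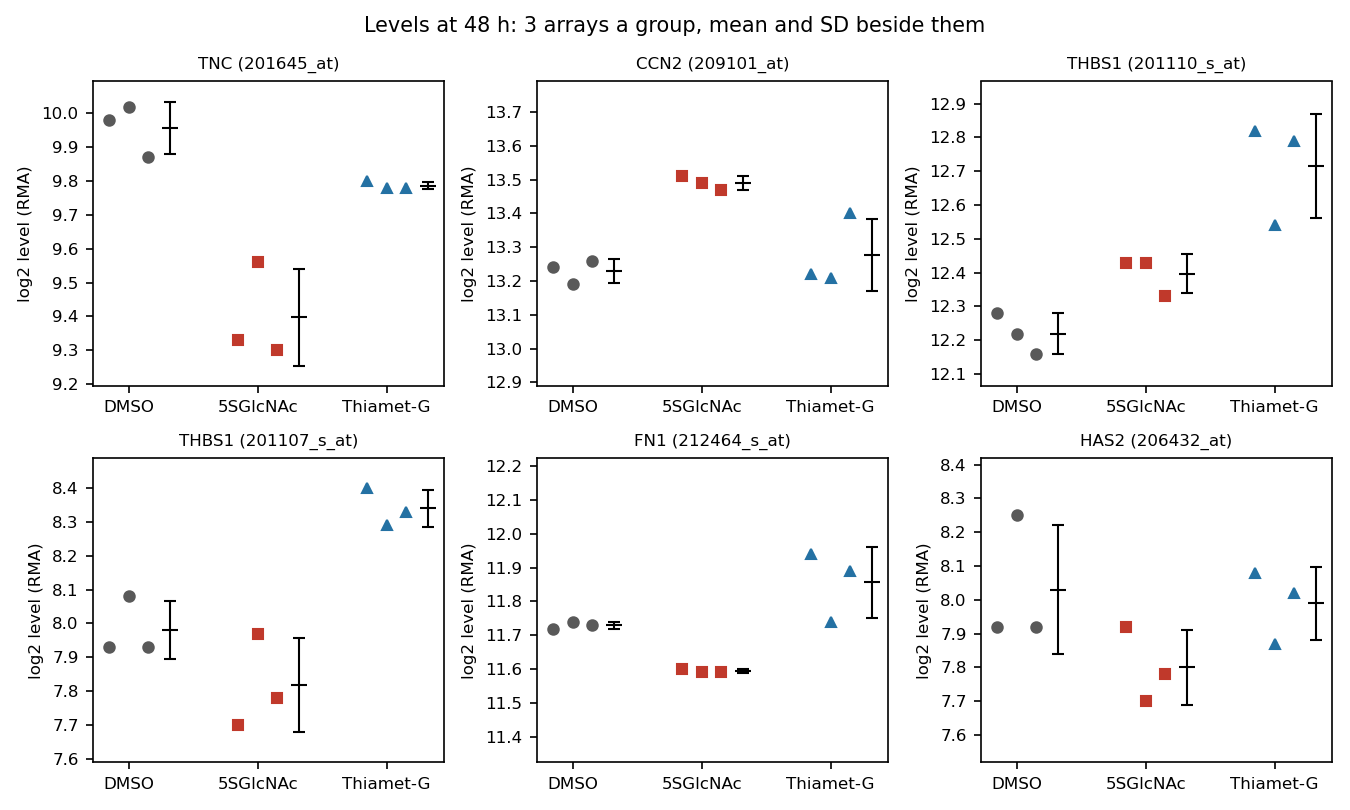
Log2 level (y axis) of TNC, CCN2, THBS1 (2 probe sets), FN1 and HAS2 on the 9 arrays of 48 h, 3 per treatment (x axis), with the mean and SD of each group beside its points. TNC is lowest and CCN2 highest with 5SGlcNAc, THBS1 is highest with Thiamet-G, and the groups of HAS2 overlap or touch.

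SPARC, a collagen-binding matricellular protein that many mesenchymal cells secrete, was near the bottom of the arrays. By 200665_s_at it read 4.23 to 5.02 with a median of 4.60 over 0 to 24 h and 4.72 to 5.31 at 48 h, and by 212667_at 3.78 to 4.36 and 4.14 to 4.32. All these lie below the lower quartile of the arrays, which was 5.60 to 5.72 and 5.81 to 5.93. The SPARC probe sets correlated at -0.29 with each other, and none of 26 tests passed (lowest adjusted p 0.242). At this brightness a difference between groups may not be detectable.

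The other genes of the pathways were taken from lists, each gene by its brightest probe set. The lists were chosen with earlier results of these data known, so a share above that of all genes is a description and not independent evidence. Of 19 measured YAP and TAZ target genes, including CCN1, CCN2, ANKRD1 and AXL, 5SGlcNAc against DMSO at 48 h raised 2 and lowered 1, where 8.28% of all genes were called. GADD45A, a stress-induced growth arrest gene, was higher by 0.35 (limma adjusted p 0.00417) beside CCN2, and IGFBP3, an IGF carrier, was lower (-0.19, adjusted p 0.0418). The list's median was -0.01 against 0.01 over all genes. Of 14 Hippo and TEAD components, 1 was called: WWTR1, which encodes TAZ, was lower (-0.24, adjusted p 0.031). Between the inhibitors at 48 h, CCN2 was the 1 target gene of the 19 called higher with 5SGlcNAc, and 3 were lower. The shares of all genes were 5.26% higher and 5.74% lower. Thiamet-G against DMSO raised 1 of the 19 and lowered 0 (2.23% of all genes called). At 24 h against 0 h (8.46% of all genes called) the target list had 2 higher and 1 lower of 19: CCN2 and IGFBP3 (0.40, adjusted p 0.0122) rose and FJX1 fell (-0.24, adjusted p 0.0385). FJX1 was also lower at 4 h (-0.43, adjusted p 0.00334).

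Among 20 hyaluronan genes at 48 h, 5SGlcNAc against DMSO raised 2 and lowered 1, where 2.17% of all genes were called higher and 6.10% lower. UGDH, which makes the UDP-glucuronic acid that HAS enzymes use, was higher (0.31, limma adjusted p 0.00833), as was HABP2, a hyaluronan-binding serine protease (0.41, adjusted p 0.0221), while CEMIP, which depolymerises hyaluronan, was lower (-0.29, adjusted p 0.0145). HMMR, an intracellular and surface hyaluronan-binding protein tied to mitosis, was lower with Thiamet-G than with DMSO (-0.32, adjusted p 0.0436), the 1 gene of the list called there (2.23% of all genes). At 24 h against 0 h, 1 of the 20 was higher and 2 were lower (4.07% and 4.39% of all genes). CEMIP (-0.69, adjusted p 3.77e-05) fell with HAS2 and PTX3, which helps to cross-link hyaluronan matrix, rose (0.68, adjusted p 0.00127). CEMIP2, a relative of CEMIP, was higher at 4 h (0.28, adjusted p 0.0298). The list's medians were 0.01 at 48 h and 0.02 at 24 h, beside 0.01 for all genes in both.

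Among 25 matricellular genes, 1 was higher and 3 were lower with 5SGlcNAc than with DMSO at 48 h, against 2.17% and 6.10% of all genes. Beside CCN2 and TNC these were SPOCK1, a testican of the SPARC family (-0.27, limma adjusted p 0.0137), and CCN3 (-0.22, adjusted p 0.0328). CCN3 moved the other way with Thiamet-G, at 0.32 above DMSO (adjusted p 0.0239), and the inhibitors differed by -0.54 (adjusted p 0.000392). At 24 h against 0 h, 2 were higher and 4 lower, against 4.07% and 4.39% of all genes: FBLN5, an elastic fibre protein, rose with CCN2 (0.44, adjusted p 0.0143), and CCN5 (-0.36, adjusted p 0.0389) was among the 4 that fell, with TNC. Of 21 receptors and AXL family genes, 4 were lower with 5SGlcNAc than with DMSO at 48 h (6.10% of all genes), among them the integrin subunits ITGB4 (-0.34) and ITGA3 (-0.33), and GAS6, the ligand of AXL (-0.31, adjusted p 0.0258). The median of these receptors was -0.08 against 0.01 over all genes.

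TGF-beta response genes, a list that holds none of the 10 genes, had the lowest median of the 7 pathway lists in 5SGlcNAc against DMSO at 48 h, -0.25 against 0.01 over all genes. Of 17 measured, 7 were lower (6.10% of all genes), among them LTBP1, which anchors latent TGF-beta in fibronectin matrix (-0.60, limma adjusted p 0.00149), the receptor TGFBR2 (-0.35, adjusted p 0.00363) and SMAD6 (-0.35, adjusted p 0.0291). For Thiamet-G against DMSO 0 of 17 were called by limma, near the 2.23% of all genes called there, and 4 had an unadjusted p under 0.05. At 24 h against 0 h, 6 of 17 were lower (4.39% of all genes), led by LTBP1 (-1.07, adjusted p 8.75e-06), PMEPA1 (-0.95, adjusted p 1.27e-05) and BHLHE40 (-0.71, adjusted p 0.0002), with a list median of -0.20 against 0.01. Of 19 SRF and MRTF target genes, 2 were higher and none lower at 2 h (0.426% of all genes called), and 2 were higher and 1 lower at 4 h (2.58% of all genes called), with list medians of -0.04 and -0.05, the latter beside 0.02 for all genes. The growth factor induced EGR1 was higher at 2 h (1.79, adjusted p 0.000665) and at 4 h (1.54, adjusted p 0.000773), as was FOS (1.95, adjusted p 0.00177, and 1.25, adjusted p 0.0151), and FHL2 was lower at 4 h (-0.22, adjusted p 0.0489). At 48 h, 1 of the 19 was higher and 3 were lower with 5SGlcNAc than with DMSO (2.17% and 6.10% of all genes), including the tropomyosin TPM2 (-0.34, adjusted p 0.0135) and the focal adhesion protein VCL (-0.26, adjusted p 0.00937).

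Markers of other cell types also moved with time. Of 11 luminal epithelial markers, 5 were lower at 24 h than at 0 h and none higher (4.39% of all genes lower), with TFF1 at -1.40 (limma adjusted p 3.72e-05) and CDH1 at -0.84 (adjusted p 6.12e-05), beside the falls of FN1, THBS1, TNC and HAS2. The mean level of the 11 went from 8.42, 8.32 and 8.42 at 0 h to 8.07, 8.04 and 8.14 at 24 h in the DMSO, 5SGlcNAc and Thiamet-G series. Over 0 to 24 h the brightest of them were KRT18 (13.21), KRT8 (12.12), KRT19 (10.79), GATA3 (9.65) and EPCAM (9.08), and the dimmest was PGR (3.95). Their part in the falls was not tested. Of 9 fibroblast markers 1 was lower at 24 h, LUM (-1.05, adjusted p 0.00118), while COL1A1, the brightest, averaged 8.99 and POSTN, the dimmest, 3.59 over 0 to 24 h. TFF1 averaged 7.71 over these arrays. CDH1 (5.52) and LUM (4.96) averaged below the lower quartile of 5.66, so their falls are those of dim probe sets. At 48 h, 5SGlcNAc against Thiamet-G lowered 3 of the 11 luminal markers (5.74% of all genes lower), among them KRT19 (-0.46, adjusted p 0.000767) and CDH1 (-0.34, adjusted p 0.0303), and 1 of the fibroblast markers, LUM (-0.95, adjusted p 0.00253), beside the lower FN1, THBS1 and TNC. It also lowered 3 of the 9 markers listed for the line itself, 1 of 7 haematopoietic and 1 of 5 endothelial markers, and raised 0 in these lists. The mean luminal level was 8.33 to 8.37 with 5SGlcNAc, 8.47 to 8.50 with Thiamet-G and 8.47 to 8.52 with DMSO, and the mean fibroblast level was 6.04 to 6.22, 6.15 to 6.19 and 6.06 to 6.12. CDH1 and LUM were dim at 48 h as well, at means of 6.28 and 6.24 beside a lower quartile of 5.87. The part of these markers in the differences at 48 h was not tested either.

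As a description over the 18 arrays of 0 to 24 h, which share times, series and processing, the genes whose levels were most alike were named for each member by Pearson r. For HAS2 these were IRS1 (0.91) and FJX1 (0.89), for FN1 ENPP1 (0.96) and COL4A1 (0.95), and for TNC CSGALNACT1 (0.92) and CDH19 (0.90). For CCN2 they were TESK2 (0.88) and PIK3R1 (0.88), for ANKRD1 ARID4B (0.93) and ANKRD46 (0.88), and for THBS1 PRKAR1A (0.91) and HLA-F-AS1 (0.90). For CD44 they were FAM3C (0.90) and PPP1CB (0.89), for AXL KPNA2 (0.84) and POTEKP (0.82), for SPARC DAB1 (0.86) and CHI3L2 (0.77), and for CCN1 BCL11A (0.77) and KHSRP (0.72). Among the 10 genes themselves, HAS2 and CCN2 ran opposite (r = -0.79), and TNC and FN1 ran together (r = 0.84).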

How the data were processed

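Total RNA of MDA-MB-231 cells had been hybridised to 27 Affymetrix human expression arrays. The authors deposited 1 log2 value per probe set and array, made, per the submitters' processing notes, with RMA (version not given in the sources used here). The 9 arrays of 48 h carry fewer decimals than the 18 of 0 to 24 h, so each set was fitted apart, and only the change of effect from 2 to 24 h to 48 h joins them. Of 22277 probe sets, 62 controls were left out, 19064 name 1 gene, 1043 several and 2108 none, by GEO's platform annotation, and 19052 had their symbols updated through Entrez identifiers.

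Tests used limma 3.58.1 in R 4.3.3 (lmFit, eBayes, two-sided, Benjamini-Hochberg over all 22215 probe sets, threshold 0.05). The 48 h fit has 3 group means, the 2 to 24 h fit has time as a block, and the fit against 0 h has treatment series as a block and pools the 3 series, so it describes time in dosed and undosed cells together. In the 2 to 24 h fit the times stand in for replicates. The test of the change of effect pools that scatter with the spread between arrays of 48 h. Values at single times of 0 to 24 h rest on 1 array and carry no test. Intervals cover 95%. Arrays are limited in precision by their number.

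Every member probe set is named or counted. Counts of genes take the brightest probe set of each gene in each fit. Where probe sets of a member differ, they are given singly or as a range, in no order of brightness. Each list gives up to 3 called genes of largest change in the comparisons written out, and each member 2 genes of highest correlation. Comparisons that are not written out for a list also had called genes, which are not named. The members and lists were chosen with earlier results of these data known. Alternatives were quantile normalization, median centring, leaving out probe sets under the 40th percentile of brightness, 1 or the mean probe set per gene, leaving out cross-matching probe sets, trend and robust variance, other blocks, and leaving out arrays or series. Leaving out the DMSO and Thiamet-G arrays of 4 h together was chosen after seeing the data. The scripts were tested on simulated data.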

Additional observations from a re-analysis of the deposited data

Results flagged for a closer look

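The effect of 5SGlcNAc against DMSO on TNC (201645_at) was lower at 48 h than over 2 to 24 h by a log2 difference of -0.50, and limma's test of that difference between times passed (adjusted p 0.0132). The effect on CCN2 (209101_at) was higher at 48 h than over 2 to 24 h by 0.33 (adjusted p 0.0246), and its earlier mean of -0.07 had an interval that spans 0 (-0.17 to 0.03). Both tests pool the spread between arrays of 48 h, which may be technical only, with the scatter of single arrays over the earlier times. The 48 h arrays and the earlier ones also differ in the decimals of their values, and time and array set cannot be told apart here.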

How the results depend on the processing

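No call of a member changed direction in any alternative. The calls of TNC for 5SGlcNAc against DMSO at 48 h, of 201107_s_at and 215775_at of THBS1 at 24 h, and of the 4 bright FN1 probe sets at 24 h were kept in every alternative run on them. Counts of member genes called, by brightest probe set, moved as follows, and the cause was not tested. For 5SGlcNAc against DMSO at 48 h the count of 2 became 5 with trend and robust variance, 1 with the replicate block and 1 without any 1 array of the groups. For 5SGlcNAc against Thiamet-G at 48 h, 3 became 1 with only the arrays of the 2 groups and 1 to 2 with a replicate left out. For Thiamet-G against DMSO at 48 h, 0 became 1 with the mean of the probe sets of a gene. At 2 h, 0 became 1 with trend and robust variance. At 4 h, 2 became 0 to 2 with a series left out and 0 without the DMSO and Thiamet-G arrays of 4 h. At 6 h, 2 became 3 with the mean of probe sets, 1 without the series block and 0 with any series left out. At 8 h, 1 became 2 with dim probe sets left out, with 1 probe set a gene or without cross-matching probe sets, 3 with the mean of probe sets, and 0 without the series block or with any series left out. At 24 h, 4 became 2 without the series block and 1 to 2 with a series left out. For the 5SGlcNAc effect at 48 h minus that over 2 to 24 h, 2 became 1 with the mean of probe sets and 0 to 2 with a replicate left out. Replicate numbers at 48 h share only a number: deviations of same-numbered arrays correlated at -0.28 to 0.16. With the replicate block, CCN2 in 5SGlcNAc against DMSO had an adjusted p of 0.0511 and THBS1 201110_s_at in Thiamet-G against DMSO 0.0627. It also ended the calls of CCN2 and of FN1 211719_x_at and 216442_x_at between the inhibitors. Over all probe sets, the 1489 calls of 5SGlcNAc against DMSO at 48 h ranged from 660 to 2373, the 370 of Thiamet-G against DMSO from 8 (only the arrays of the 2 groups) to 1173, the 1988 between the inhibitors from 1020 to 3074, and the 1629 at 24 h from 254 to 2251. The 509, 633 and 938 calls at 4, 6 and 8 h became 0, 5 and 0 without the DMSO series.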
